A study of Mus musculus with 24 samples.

Results

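The comparison described here is that of circulating miRNAs in mouse serum after 1 week on a diet that models non-alcoholic steatohepatitis (NASH) against serum from mice on control chow for the same week. Its members were the miRNAs that the scanner software counted as detected on at least 2 of the 4 week 1 serum arrays, and they numbered 394 of the 1881 mouse miRNAs on the array. Of these, 313 were detected on all 4 arrays, 35 on 3 arrays and 46 on 2 arrays. Just outside the threshold lay 48 miRNAs detected on 1 array, and 1439 were detected on 0 arrays.

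The mice were male C57BL/6NJcl, bought at 5 weeks of age, kept for 1 week to settle, and 7 weeks old when heart blood was taken. The NASH group ate a choline-deficient, high-fat feed (CDAHFD) supplemented with 0.1% methionine, and the control group ate the solid feed CE-2. The feeds differ in many components, so the comparison is of whole diets. Each diet had 2 serum arrays at week 1, and the study also held weeks 2 and 6 and the livers of all 3 weeks, for 24 arrays in 12 groups. Nothing in the labels tells if 2 arrays of one group stand for different mice, for pools or for 1 RNA sample hybridised again, and the p-values therefore measure only the spread between arrays, which may be technical.

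A miRNA is a short RNA that pairs with messenger RNAs, chiefly through its seed (bases 2 to 8), and lowers the output of the matched genes. miRNAs leave cells in vesicles and protein complexes or when cells break, and they persist in serum, so a serum profile mixes contributions of liver, blood cells, vessels, muscle and epithelia. In a choline-deficient diet hepatocytes cannot export lipid normally and store it, and hepatocyte miRNAs such as miR-122 are widely followed in serum as markers of hepatocyte injury. An array of serum RNA cannot tell apart a change in the number of cells that give a miRNA and a change in what each cell gives.

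The sequences of the miRNAs on which the results turn are shown first, from RefSeq on the mouse build GRCm38.p6, each written 5′ to 3′ with the seed in capitals. In all, 326 of the 394 miRNAs matched a RefSeq mature sequence. The first set holds miRNAs that passed the test and others whose arrays did not overlap between the diets.
miR-192-5p: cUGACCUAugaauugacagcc
miR-194-5p: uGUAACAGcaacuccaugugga
miR-34a-5p: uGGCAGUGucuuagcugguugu
miR-21a-5p: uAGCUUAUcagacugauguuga
miR-205-5p: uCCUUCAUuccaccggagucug
miR-344i: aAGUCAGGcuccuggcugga
miR-214-3p: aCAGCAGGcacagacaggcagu
The gene of miR-192-5p lies on chr19:6264857-6264877 (plus strand). That of miR-205-5p lies on chr1:193507503-193507524 (minus strand) within its host transcript Mir205hg. miR-214-3p comes from chr1:162223438-162223459 (plus strand), inside Dnm3 and Dnm3os, and miR-21a-5p from chr11:86584120-86584141 (minus strand), overlapping Vmp1. miR-194-5p is encoded at 2 loci, one of them on chr1:185313325-185313346 (plus strand) in Iars2.

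The second set shows miRNAs that share a seed with one of these or with another named miRNA, because in 2 of the 4 groups shown 1 member had both NASH arrays above and another had both NASH arrays below the control arrays.
miR-192-5p: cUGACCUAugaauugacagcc
miR-215-5p: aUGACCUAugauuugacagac
miR-193a-3p: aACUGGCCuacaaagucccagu
miR-193b-3p: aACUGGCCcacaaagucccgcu
miR-132-3p: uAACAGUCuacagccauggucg
miR-212-3p: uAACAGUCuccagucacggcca
miR-721: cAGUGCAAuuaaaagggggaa
miR-130a-3p: cAGUGCAAuguuaaaagggcau
miR-130b-3p: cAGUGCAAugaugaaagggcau
miR-301a-3p: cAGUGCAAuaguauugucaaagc
miR-193a-3p and miR-193b-3p have the same base at 19 of 22 positions. miR-721 lies on chr5:136375777-136375797 (minus strand) within Cux1 and carries the seed of the miR-130 and miR-301 family.

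The array is a 1-colour Agilent design read as Cy3 intensity, with 2.5 ng of serum RNA labelled per array. The detected miRNAs numbered 345 and 362 on the control arrays and 391 and 399 on the NASH arrays, and the range over the later serum arrays was 235 to 338. A two-sided exact permutation test of these counts gave p = 0.333, the smallest that 2 arrays against 2 allow. Control replicate 2 stood apart in its share of spots marked as outliers, 3389 of 56430, where the other 23 arrays of the study had 1384 to 1722. Of 4 added spike-in RNAs, 3 were lower on both NASH arrays than on both control arrays, by 0.17, 0.83 and 1.00 on the log2 scale (two-sided exact permutation p = 0.333 for each, the smallest possible). The 2 with the wider gaps were brightest on control replicate 1, at 15313 against 4760 to 7243 on the other 3 arrays and at 25838 against 8785 to 12308. The part of this in the lower miRNAs was not tested. All 4 arrays lay on 1 slide, with the control arrays in column 1, the NASH arrays in column 2 and the replicate number equal to the slide row, so an effect of the column cannot be told apart from that of diet.

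Levels below are log2 of the scaled signal, and differences are NASH minus control on that scale. Each array was divided by its own 75th percentile over probes above background on all 12 serum arrays, and scaled signals under a floor of 12.5 (3.65 on the log2 scale) were set to it. A value of 3.65 therefore means at or below the floor. The test was limma with Benjamini-Hochberg adjustment over the 426 miRNAs detected on at least 2 of the 12 serum arrays of all weeks.

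At an adjusted p below 0.05, 6 of 426 miRNAs differed between the diets at week 1 (1.41% of those tested), and all 6 were among the 394. The 2 that rose on the NASH diet (0.469%) were miR-122-3p and miR-192-5p, which are abundant in hepatocytes. The 4 that fell (0.939%) were miR-205-5p, miR-712-5p, miR-344i and miR-721. At an unadjusted p below 0.05 there were 45 (10.6%), of which 14 were higher and 31 lower. The arrays of the diets did not overlap for 127 miRNAs (29.8%), with the NASH arrays above in 35 (8.22%) and below in 92 (21.6%). A further 88 of the 394 were at the floor on all 4 arrays, and 223 were above it on all 4. The median difference over the 426 tested was 0.00, and over the 313 detected on all 4 arrays it was -0.05.

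**Figure D1:**
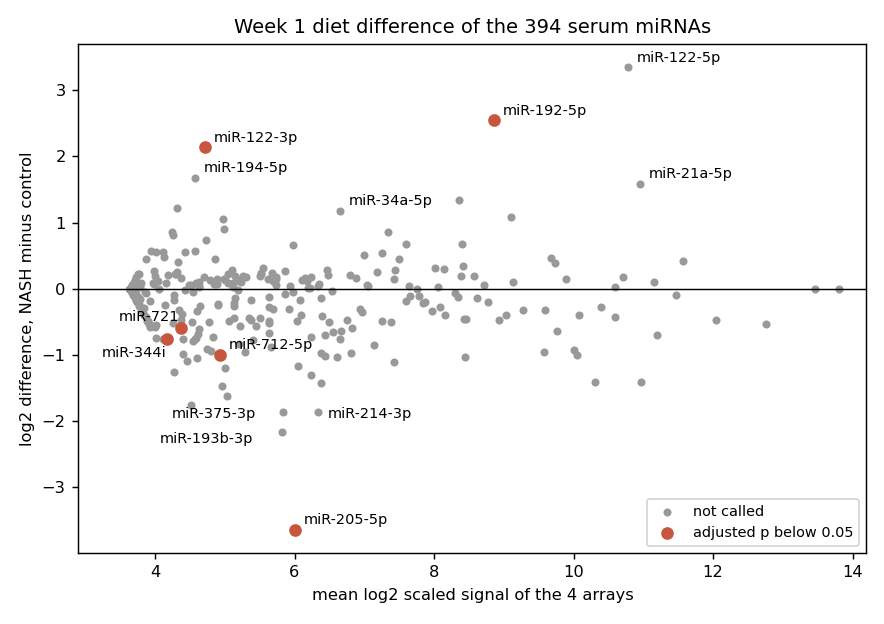
Difference between the diets (log2, NASH minus control; vertical axis) against the mean log2 scaled signal of the 4 week 1 serum arrays (horizontal axis) for the 394 miRNAs, 1 point each. The 6 miRNAs with a limma adjusted p below 0.05 are in red; miR-122-5p, with a difference of 3.35, and miR-205-5p, with -3.64, lie farthest from 0 in each direction.

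The hepatocyte miRNAs were read first. miR-122 is the main miRNA of hepatocytes and is processed into a dominant 5p strand and a scarcer 3p strand. The 3p strand, miR-122-3p, was at the floor on both control arrays (3.65 and 3.65), where it was detected on 0 arrays, and at 5.85 and 5.73 on the NASH arrays. As a lower limit, the lowest signal that counted as above background was taken on each control array and averaged on the log2 scale. Against that average the NASH mean of its brightest probe was at least 5.69-fold higher, a ratio that was not itself tested. Against the floor it was 4.42-fold higher. Of the 2 probes of miR-122-3p, 1 had this sign and 0 had the opposite sign. The mean over probes gave a smaller difference of 1.07. The test used the floored values, with a fitted difference of 2.14, a standard error (SE) of 0.26 and limma adjusted p = 0.0200. With the replicate number as a block, the adjusted p of miR-122-3p was 0.232. Both control arrays and 4 later serum arrays were set to the floor, so the SE rests partly on tied values. Its week 1 detections were all on NASH arrays, so the NASH diet alone brought it into the comparison.

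miR-192-5p comes from a transcript shared with a miR-194 gene and is abundant in liver, gut and kidney. Its levels were 7.82 and 7.35 in control serum and 9.87 and 10.41 in NASH serum. Both NASH arrays lay above both control arrays, by 2.05 between the arrays of replicate 1 and by 3.05 between those of replicate 2. miR-192-5p rose by 2.55 (SE 0.39), or 5.86-fold, with limma adjusted p = 0.0286, and adjusted p = 0.273 with the replicate number as a block.

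miR-122-5p had the largest positive difference and did not pass. It was at 9.96 and 8.25 on the control arrays and at 12.30 and 12.61 on the NASH arrays, a difference of 3.35 (SE 0.99, adjusted p = 0.209). The NASH arrays lay close to each other, while the control arrays differed by more than 1 log2 unit, control replicate 2 being the lower. miR-194-5p, the partner of miR-192 in the genome, was at 3.81 and 3.65 in control and at 5.42 and 5.39 in NASH serum, a difference of 1.68 (SE 0.41, adjusted p = 0.157). Both diets were tight for this miRNA, but 1 control array was at the floor.

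Of the 9 members in the list of hepatocyte-enriched miRNAs, 2 passed the test as higher (0.469% of all tested) and 0 as lower, and the median difference was 0.86 against 0.00 over all tested. This median was 0.33 under normexp background correction, a setting that adds an offset of 50 to each signal. Such an offset shrinks the log2 differences of dim miRNAs. The setting also starts from the median spot signal and median background, in place of the scanner software's background-subtracted signal. The part of either change in the values under normexp, here and below, was not tested. The NASH arrays lay above the control arrays without overlap for 6 of the 9 (8.22% of all tested). The tally is a description only, since miR-122-3p and miR-192-3p were detected on 0 control arrays and became members through the NASH arrays alone. miR-148a-3p, a hepatocyte miRNA linked to lipid uptake, was at 6.66 and 7.15 in control and 7.78 and 7.75 in NASH serum (difference 0.86, adjusted p = 0.452). miR-193a-3p was at the floor on both control arrays and at 4.04 and 4.40 on the NASH arrays (0.58, adjusted p = 0.175). The other 3, miR-365-3p, miR-455-3p and miR-192-3p, had differences of 0.18, -0.02 and 0.00. miR-192-3p, the other strand of the miR-192 hairpin, was at the floor on all 4 arrays.

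**Figure D2:**
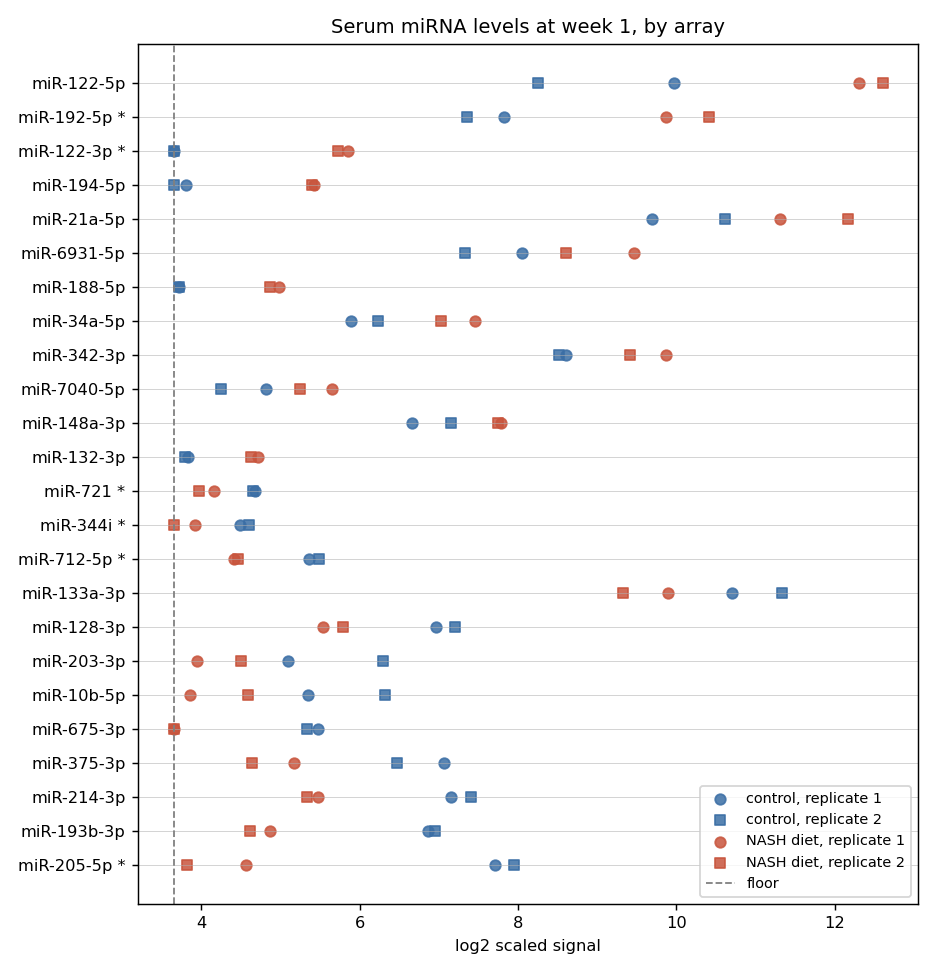
Levels (log2 scaled signal; horizontal axis) of the 12 miRNAs named in each direction, with 1 point per array: circles for replicate 1, squares for replicate 2, blue for control and red for the NASH diet. An asterisk marks the 6 miRNAs with an adjusted p below 0.05, and the dashed line is the floor at 3.65; by the rule that named them, the red and blue points of each miRNA do not overlap.

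The named miRNAs outside the hepatocyte list with NASH arrays above both control arrays included miR-21a-5p, miR-34a-5p, miR-342-3p, miR-132-3p and miR-188-5p. miR-21a-5p, which is made by many cells and is induced in inflamed and fibrotic tissue, was at 9.69 and 10.62 in control and at 11.31 and 12.17 in NASH serum. The difference was 1.59 (SE 0.50, adjusted p = 0.260), and within each diet replicate 2 was the higher array. The gap between the diets was 1.62 between the arrays of replicate 1 and 1.56 between those of replicate 2.

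miR-34a-5p, a p53 target that restrains proliferation and acts on the deacetylase gene Sirt1, was at 5.89 and 6.23 in control and at 7.45 and 7.03 in NASH serum (difference 1.18, SE 0.25, adjusted p = 0.104). It was the single member of the miR-34 family detected. miR-342-3p, which is enriched in lymphocytes, was at 8.61 and 8.51 in control and at 9.87 and 9.42 in NASH serum (1.08, adjusted p = 0.464). Neither passed the test, and in neither did any array of one diet reach the range of the other.

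miR-132-3p and miR-188-5p were dim, with control arrays of 3.83 and 3.80 for the first and 3.71 and 3.71 for the second. Their NASH arrays were at 4.72 and 4.63 and at 4.98 and 4.87, giving differences of 0.86 (adjusted p = 0.190) and 1.21 (adjusted p = 0.157). Under normexp background correction miR-132-3p had a difference of -0.01. miR-6931-5p and miR-7040-5p, 2 high-numbered miRNAs without an established role, had differences of 1.34 (adjusted p = 0.464) and 0.91 (adjusted p = 0.175).

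The largest difference in either direction was that of miR-205-5p, an epithelial miRNA of skin and other stratified epithelia that maintains the epithelial state by acting on Zeb1 and Zeb2. It was at 7.71 and 7.95 in control serum and at 4.56 and 3.82 in NASH serum. Both NASH arrays lay below both control arrays, and the differences were -3.15 between the arrays of replicate 1 and -4.13 between those of replicate 2. miR-205-5p fell by 3.64 (SE 0.48), so that control serum was 12.5-fold higher (limma adjusted p = 0.0200, and 0.273 with the replicate number as a block).

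miR-203-3p, the other detected member of the skin epithelium list and a promoter of keratinocyte differentiation, was at 5.09 and 6.29 in control and at 3.94 and 4.50 in NASH serum. Its difference of -1.47 (SE 0.49) had an adjusted p of 0.293. The summed scaled signal of both skin miRNAs was 243 and 325 on the control arrays and 38.8 and 36.8 on the NASH arrays. Blood was drawn from the heart, and the part of skin or other tissue caught during sampling in these values was not tested. The miR-200 family, which marks epithelia more broadly, had 4 detected members, of which 0 passed and 3 had both NASH arrays below both control arrays (21.6% of all tested). Their median difference of -0.57 was -0.03 under normexp and -0.30 under quantile normalization. Its largest difference was that of miR-200b-3p, at 4.82 and 5.41 in control and 3.65 and 4.50 in NASH serum (-1.04, adjusted p = 0.571).

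The other 3 miRNAs that fell were dim, and none of them fell by more than 1.00. miR-712-5p, which derives from the precursor of ribosomal RNA in mouse, was at 5.36 and 5.49 in control and at 4.40 and 4.46 in NASH serum, and fell by 1.00 (SE 0.13, adjusted p = 0.0200). miR-344i was at 4.49 and 4.60 in control and at 3.92 and 3.65 in NASH serum, and fell by 0.76 (SE 0.11, adjusted p = 0.0248). miR-721 was at 4.68 and 4.65 in control and at 4.16 and 3.97 in NASH serum, and fell by 0.59 (SE 0.05, adjusted p = 0.00835). The diets did not overlap for any of the 3. With the replicate number as a block, their adjusted p-values were 0.273, 0.273 and 0.232. The spread that tested miR-344i and miR-721 came largely from arrays at the floor, since 6 and 7 of their 8 later serum arrays lay there.

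When the test was restricted to the 196 miRNAs detected on all 12 serum arrays, 8 passed. Of the 6 above, miR-192-5p (adjusted p = 0.000120) and miR-205-5p (adjusted p = 5.21e-07) passed again, miR-712-5p did not, and the other 3 were not among those tested. The further 6 were miR-122-5p (adjusted p = 0.000194), miR-194-5p (0.0143) and miR-21a-5p (0.0333), which were higher on the NASH diet, and miR-193b-3p (0.000930), miR-214-3p (0.00450) and miR-375-3p (0.00620), which were lower. Under normexp background correction 8 of 426 passed. From the original 6 these were miR-192-5p (2.35) and miR-205-5p (-2.15). The others were miR-122-5p, miR-128-3p, miR-140-3p, miR-193b-3p, miR-214-3p and miR-497a-5p. In that setting miR-122-3p was at 0.58, miR-712-5p at -0.45, miR-344i at -0.12 and miR-721 at -0.15. Its offset of 50 shrinks the differences of dim miRNAs, and the part of the offset in these smaller values was not tested. With the 4 week 1 arrays alone and no later weeks, 0 miRNAs passed in limma, 48 had an unadjusted p below 0.05, and the smallest adjusted p was 0.0540. Leaving out control replicate 2 left 4 calls, and leaving out NASH replicate 2 left 2 calls. In both cases miR-721 was the only 1 of the 6 that still passed. Without NASH replicate 1 there were 6 calls, with miR-205-5p, miR-344i and miR-721 from the original 6, and without control replicate 1 there were 14, with all 6.

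miR-193b-3p, miR-214-3p and miR-375-3p were the largest negative differences after miR-205-5p. miR-193b-3p, expressed in fat and muscle among other tissues, was at 6.86 and 6.95 in control and at 4.86 and 4.61 in NASH serum (difference -2.17, SE 0.41, adjusted p = 0.0811 over all 426). miR-214-3p, which stellate cells and other mesenchymal cells express from the Dnm3os transcript, was at 7.15 and 7.40 in control and at 5.48 and 5.33 in NASH serum (-1.87, SE 0.37, adjusted p = 0.0811). miR-375-3p, a miRNA of pancreatic islets and neuroendocrine gut cells, was at 7.07 and 6.47 in control and at 5.17 and 4.64 in NASH serum (-1.86, SE 0.45, adjusted p = 0.157). For each, the gap between the diets was wider than the difference between the arrays of either diet. miR-375-3p was the single member of the 8 listed pancreatic and neuroendocrine miRNAs that was detected.

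Apart from miR-203-3p (-1.47), given above, the next negative differences in size were miR-675-3p, miR-10b-5p, miR-128-3p and the muscle miRNAs. miR-675-3p, made from the imprinted H19 transcript, was at 5.47 and 5.33 in control and at the floor on both NASH arrays (-1.75, adjusted p = 0.154). miR-10b-5p, from a Hox gene cluster, was at 5.34 and 6.32 in control and at 3.85 and 4.58 in NASH serum (-1.62, adjusted p = 0.293). miR-128-3p, best known from neurons, was at 6.96 and 7.21 in control and at 5.54 and 5.79 in NASH serum (-1.42, adjusted p = 0.177). In miR-128-3p the 2 replicate numbers gave nearly the same gap, -1.42 and -1.42. In miR-10b-5p the arrays of replicate 2 were the higher ones in both diets.

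miR-133a-3p and miR-133b-3p are muscle miRNAs that differ by little in sequence and may share probe signal. miR-133a-3p was at 10.70 and 11.34 in control and at 9.89 and 9.32 in NASH serum (-1.41, adjusted p = 0.452), and miR-133b-3p had a difference of -1.41 (adjusted p = 0.452). Of the 6 detected members of the skeletal and heart muscle list, 0 passed and 3 had both NASH arrays below both control arrays (21.6% of all tested). Those 3 were all strands of miR-133a or miR-133b. The list median was -0.64, or -0.16 under normexp. miR-1a-3p overlapped between the diets, at 7.59 and 9.07 in control and at 7.27 and 9.27 in NASH serum. Its difference was -0.06, and its 2 probes had opposite signs. miR-499-5p, carried by a slow-muscle myosin gene, was above the floor on control replicate 2 alone, at 4.70.

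**Figure D3:**
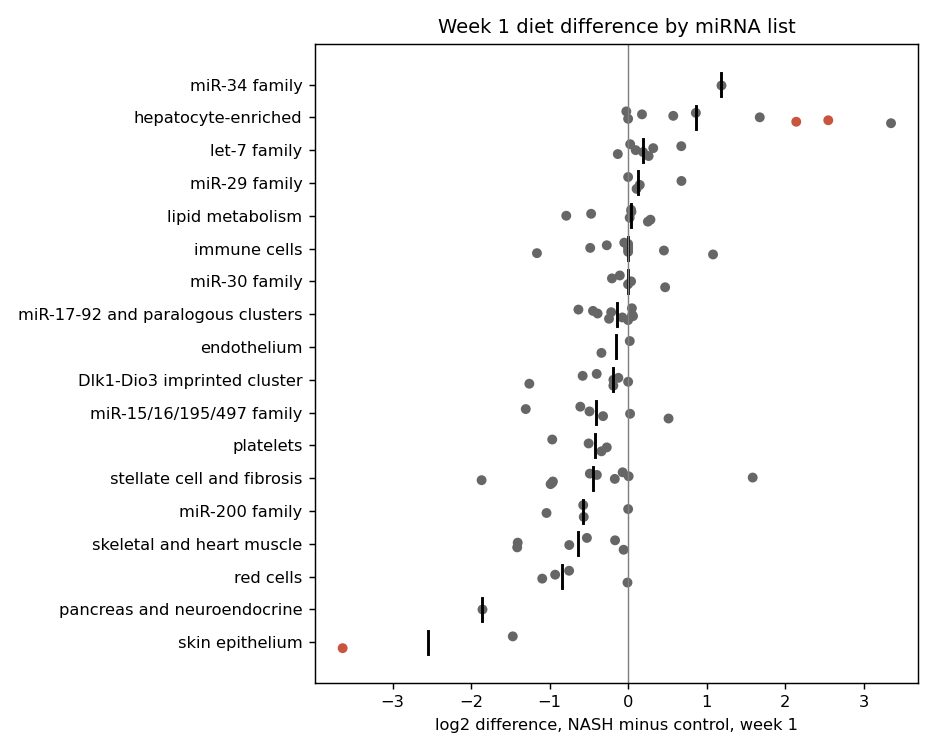
Difference between the diets at week 1 (log2, NASH minus control; horizontal axis) for the detected members of 18 lists of miRNAs, 1 point per miRNA and black bars at the list medians. Red points passed the test; the medians run from -2.55 for the 2 skin miRNAs to 1.18 for miR-34a-5p, the single member of its family.

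The blood cell lists were described next, since serum carries miRNAs of broken cells. Red cell miRNAs had 4 detected members, of which 0 passed, 3 had both NASH arrays below both control arrays (21.6% of all tested), and the median was -0.84, or -0.22 under normexp. miR-451a, the dominant erythroid miRNA, was at 13.28 and 14.33 in control and at 13.12 and 14.48 in NASH serum, a difference of -0.01 (adjusted p = 1.00), and followed the replicate number rather than the diet. Its sign changed under 5 of the other scalings and signal summaries. miR-486a-5p, also abundant in red cells, was at 10.48 and 10.47 in control and at 9.60 and 9.48 in NASH serum (-0.93, adjusted p = 0.350). miR-144-3p, from the miR-451a cluster, was at 4.83 and 5.19 in control and at 3.65 and 4.18 in NASH serum (-1.09, adjusted p = 0.464).

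The haemolysis index, log2 of miR-451a minus log2 of miR-23a-3p, was 1.96 and 2.57 in control and 2.35 and 3.57 in NASH serum. The diets overlapped, and a two-sided exact permutation test of the difference of 0.70 gave p = 0.667. The reference of the index, miR-23a-3p, was at 11.33 and 11.77 in control and at 10.77 and 10.92 in NASH serum. Its difference was -0.70 (limma adjusted p = 0.530), against -0.01 for miR-451a. With this scaling the difference in the index lay in the lower reference. The index itself was the same without scaling, where miR-451a had a difference of 0.22. How the index splits between miR-451a and miR-23a-3p thus depends on the scaling. The summed scaled signal of the 4 red cell miRNAs ranged from 11454 to 22134 in control and from 9690 to 23673 in NASH serum. The part of red cell RNA in the diet differences was not tested.

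The 4 detected platelet miRNAs had a median of -0.42, 0 passed and 1, miR-151-5p, lay below without overlap (21.6% of all tested; -0.50, adjusted p = 0.818). miR-199a-3p, abundant in platelets and mesenchymal cells, was at 6.67 and 7.93 in control and at 5.64 and 7.02 in NASH serum (-0.97, adjusted p = 0.902). Here too replicate 2 was higher in both diets. Of the 10 immune cell miRNAs, 0 passed, 2 lay above (8.22% of all tested) and 1 below (21.6%) without overlap, and the median was 0.00. miR-142a-5p, miR-146b-5p, miR-155-5p and miR-181a-5p were at the floor on all 4 arrays, and these ties set the median. miR-150-5p of mature lymphocytes was at 6.56 and 6.69 in control and 5.33 and 5.60 in NASH serum (-1.16, adjusted p = 0.464). miR-146a-5p, induced by NF-kB signalling, was at 7.05 and 7.51 in control and 7.87 and 7.60 in NASH serum (0.46, adjusted p = 0.833). miR-223-3p and miR-142a-3p, both of myeloid and other blood cells, overlapped between the diets, with differences of -0.27 and -0.48. Both endothelial members, miR-126a-3p and miR-126a-5p, overlapped as well (-0.34 and 0.02).

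The list of stellate cell and fibrosis miRNAs had 10 detected members, of which 0 passed, 1 lay above (8.22% of all tested) and 4 lay below (21.6%) the control arrays without overlap, and the median was -0.44, or -0.16 under normexp. The member above was miR-21a-5p. The mesenchymal miR-199a-5p, which shares the Dnm3os transcript with miR-214, was at 4.37 and 5.42 in control and at 3.65 and 4.16 in NASH serum (-0.99, adjusted p = 0.464). The miR-29 family, whose members repress collagen genes, had 4 detected members with a median of 0.13, and the most different was miR-29c-3p, at 7.95 and 8.16 in control and 8.80 and 8.67 in NASH serum (0.68, adjusted p = 0.464).

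Among the remaining families 0 members passed. The 7 let-7 miRNAs overlapped between the diets without exception, with a median of 0.19. let-7g-5p was at 6.78 and 7.74 in control and 6.92 and 8.96 in NASH serum (0.68, adjusted p = 1.00), so that 1 NASH array set its difference. The 10 miRNAs of the miR-17-92 and related clusters had a median of -0.15, which was 0.03 when arrays were scaled by the median, and 3 lay below without overlap (21.6% of all tested), the most different being miR-25-3p (-0.63, adjusted p = 0.464). The 5 miR-30 miRNAs had a median of 0.00, which was 0.26 when scaled by the median. miR-30a-5p was the 1 member without overlap, at 9.22 and 9.66 in control and 10.01 and 9.82 in NASH serum (0.47, adjusted p = 0.757).

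The miR-15, miR-16, miR-195 and miR-497 family had 6 members and a median of -0.41. Its most different member was miR-497a-5p, at 6.65 and 7.14 in control and at 5.22 and 5.97 in NASH serum (-1.30, adjusted p = 0.187). miR-15a-5p, with the same seed, was at 6.14 and 7.33 in control and at 6.55 and 7.95 in NASH serum (0.52, adjusted p = 1.00). The 7 miRNAs linked to lipid metabolism had a median of 0.04, with miR-378a-5p, from an intron of the gene Ppargc1b, at -0.79 (adjusted p = 0.436). The Dlk1-Dio3 cluster, imprinted miRNAs that adult liver expresses at low levels, had 7 detected members of 27 on the array, of which 4 lay below without overlap (21.6% of all tested). miR-434-3p was at 4.79 and 5.02 in control and at the floor on both NASH arrays (-1.26, adjusted p = 0.189).

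Seeds were compared because miRNAs with the same seed can pair with the same targets. Of the 394, 81 shared a seed with another, in 31 seed groups. miR-192-5p and miR-215-5p have the same seed, and miR-215-5p was at 5.71 and 5.83 in control and at 4.73 and 6.27 in NASH serum (-0.27, adjusted p = 1.00), where miR-192-5p rose by 2.55. miR-193a-3p and miR-193b-3p differed by 0.58 and -2.17 between the diets, with no overlap in either. miR-132-3p and miR-212-3p, which come from 1 locus, had differences of 0.86 and -0.77, again with no overlap in either. The levels of miR-212-3p were 5.52 and 6.05 in control and 5.04 and 4.99 in NASH serum (adjusted p = 0.175). These pairs were picked for their opposite signs, and the difference within a pair was not tested.

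In the seed group of miR-721, miR-130a-3p had a difference of 0.31, miR-130b-3p of -0.47 and miR-301a-3p of -0.18, and none passed. For miR-148a-3p the partners miR-148b-3p and miR-152-3p had differences of -0.31 and -0.44. For miR-10b-5p the partner miR-10a-5p had -0.33. Across 181 miRNAs above the floor on all 4 arrays with a known sequence, the percentage of G and C bases and the diet difference had a Pearson r of -0.07 and a Spearman rho of -0.09, given as a description over miRNAs of the same 4 arrays.

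The number in a miRNA name rises with the date of naming. Of the 394, 153 were numbered 1000 or above and 0 of them passed, and all 6 calls were among the 241 others. Over all 426 tested 1.41% passed, and so few calls cannot show a difference between these classes. Both strands of 14 hairpins were above the floor on all 4 arrays, and in 7 of them the strands had differences of the same sign. miR-486a was one such hairpin, with -0.93 for the 5p strand and -0.75 for the 3p strand, and miR-150 was not, with -1.16 and 0.45. The 3p value of miR-150 was picked after its value was seen.

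**Figure D4:**
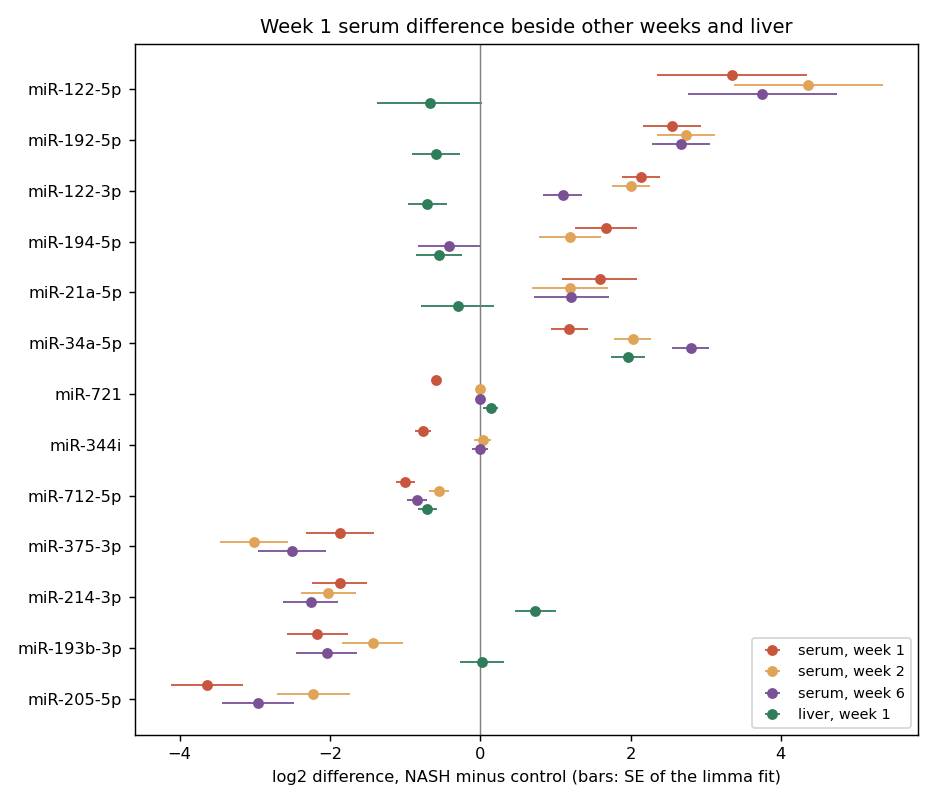
Diet difference (log2, NASH minus control; horizontal axis, bars are the SE of the limma fit) of 13 miRNAs in serum at weeks 1, 2 and 6 and in liver at week 1; a miRNA without a green point was not tested in liver. miR-192-5p lies at 2.55, 2.74 and 2.68 in the 3 serum weeks and at -0.59 in week 1 liver. miR-721 lies away from 0 at week 1 alone among the serum weeks, but most of its later serum arrays were at the floor.

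Weeks 2 and 6 have their own control and NASH arrays, and the limma test of week 1 minus the mean of the later weeks passed for 2 of 426 miRNAs (0.469%). miR-721 fell at week 1 and had differences of 0.00 and 0.00 at weeks 2 and 6, where 7 of its 8 arrays were at the floor (contrast -0.59, SE 0.07, adjusted p = 0.0166). miR-155-5p, induced in activated leukocytes, was at the floor on all 4 week 1 arrays and on 6 of its 8 later arrays. It had a week 6 difference of -0.58 (contrast 0.29, SE 0.03, adjusted p = 0.0166). The spread that tested miR-721 and miR-155-5p came largely from arrays at the floor. The other calls were not shown to differ from the later weeks. miR-192-5p had 2.74 and 2.68 at weeks 2 and 6 (adjusted p = 0.0216 and 0.0145), and the contrast was -0.16 (SE 0.47, adjusted p = 0.978).

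miR-122-3p had differences of 2.00 and 1.10 at weeks 2 and 6, miR-205-5p of -2.22 and -2.96, and miR-712-5p of -0.55 and -0.84. miR-344i had 0.03 and 0.00, with 6 of its 8 later arrays at the floor, and its contrast of -0.78 (SE 0.13) had an adjusted p of 0.117. miR-34a-5p, which did not pass at week 1, had 2.03 at week 2 (adjusted p = 0.0210) and 2.80 at week 6 (adjusted p = 0.00336), and its contrast of -1.23 (SE 0.30) had an adjusted p of 0.265. miR-375-3p had -3.01 and -2.50 in the later weeks, both past the threshold, against -1.86 at week 1. miR-194-5p had 1.20 and -0.41, so its week 6 value lay on the other side of 0, but its contrast of 1.29 (SE 0.51) had an adjusted p of 0.585. By count, 11 of 426 passed at week 2 (2.58%) and 51 at week 6 (12%).

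Serum and liver were compared in 1 limma fit over the 24 arrays for the 293 miRNAs tested in both, each tissue scaled on its own, and the week 1 diet difference in serum minus that in liver passed for 23 (7.85%). Both strands of miR-122, miR-192-5p and miR-194-5p had positive differences in serum and negative ones in liver. miR-122-5p had 3.35 in serum and -0.67 in liver (contrast 4.02, SE 0.99, adjusted p = 0.0223), and miR-192-5p had 2.55 and -0.59 (contrast 3.14, SE 0.45, adjusted p = 0.000798). miR-122-3p (2.14 and -0.70) and miR-194-5p (1.68 and -0.55) passed the same contrast. None of these 4 passed the diet test in week 1 liver, where 17 of the 293 did (5.8%). Of the same hepatocyte list miR-192-3p, at the floor in serum, passed in liver with -0.72 (adjusted p = 0.000880).

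Among miRNAs lower in NASH serum, the liver differences lay on both sides of 0. miR-214-3p had -1.87 in serum and 0.73 in liver (contrast -2.60, SE 0.39, adjusted p = 0.00107), and miR-193b-3p had -2.17 and 0.02 (contrast -2.19, SE 0.41, adjusted p = 0.00459). miR-34a-5p, by contrast, had 1.18 in serum and 1.97 in liver, where it passed, and miR-342-3p had 1.08 and 1.69. For both, the serum minus liver contrast did not pass (adjusted p = 0.168 and 0.604). miR-712-5p fell in both tissues, by 1.00 in serum and 0.71 in liver (adjusted p = 0.00236 in liver).

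**Figure D5:**
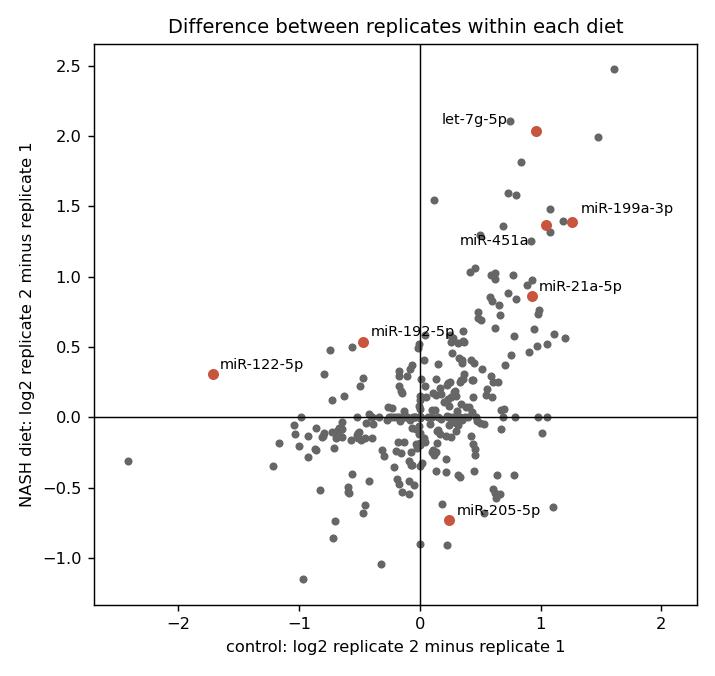
Replicate 2 minus replicate 1 (log2) within the NASH diet (vertical axis) against the same difference within control (horizontal axis) for the 313 miRNAs detected on all 4 week 1 serum arrays, with 7 named miRNAs in red. Many miRNAs lie to the upper right, where replicate 2 was higher in both diets, let-7g-5p, miR-451a and miR-199a-3p among them.

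Replicates of the same number deviated together. Over the 313 miRNAs detected on all 4 arrays, replicate 2 was above replicate 1 in both diets for 105 and below in both for 72. The differences between replicates in one diet and in the other had a Pearson r of 0.53 across these miRNAs, which share the arrays and are no independent points. For 7 miRNAs the arrays of replicate 2 exceeded those of replicate 1 by more than 1 in both diets, namely miR-103-3p, miR-15a-5p, miR-195a-5p, miR-199a-3p, miR-1a-3p, miR-26b-5p and miR-451a. Of these, miR-1a-3p and miR-26b-5p were named after their values were seen. The median absolute difference was 0.34 between the control arrays and 0.19 between the NASH arrays.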

How the data were processed

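The authors deposited 1 scanner file per array, with intensity per spot, per the file headers; the software, Agilent Feature Extraction, had subtracted background (release 11.5, by the submitters' processing notes), and no normalization between arrays was seen in the values. From these files, control spots and outlier spots were left out and spots of a probe averaged. A probe was above background if at least 0.5 of its spots were. Each serum array was divided by its 75th percentile over the probes above background on all 12 serum arrays. As a floor, the 5th percentile of scaled signals above background was taken on each array and the median of these was used; 34.4% of the member values lay there. The brightest probe stood for each miRNA. limma (version 3.58.1, R 4.3.3, lmFit and eBayes) was fitted to the 6 serum groups, and calls needed an adjusted p below 0.05. Of these steps, only the limma fit was run on simulated data, which were drawn without a floor. The scaling, the floor, the choice of probe and the detection filter were not tested in this way.

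The 2 diets share replicate numbers in their titles. Deviations of same-numbered arrays correlated at 0.53 in week 1 and 0.16 in week 2, so blocked values are printed beside the week 1 serum calls of the main test. In week 6 1 title has no number, and that array was left out of the blocked fit. With it gone and a term added per week, fewer residual degrees of freedom were left to measure the spread than the 6 of the main fit. The blocked SE was not always the wider. It was 0.18 against 0.26 for miR-122-3p and 0.53 against 0.48 for miR-205-5p.

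The members, lists and tests were chosen with earlier results of these data known. The text names up to 12 miRNAs per direction (calls, then miRNAs detected on all 4 arrays without overlap, by size), up to 5 per contrast with other weeks or with liver, up to 4 per list, and seed partners of the first kind. The lower limit for miR-122-3p sets the NASH mean against the mean, on the log2 scale, of each control array's lowest signal above background. Alternatives covered background correction (normexp with an offset of 50), scaling, the floor, the detection filter, the eBayes options, the arrays fitted, blocks, and leaving out each array.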

Additional observations from a re-analysis of the deposited data

Results flagged for a closer look

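The week 1 diet difference was larger or smaller in serum than in liver for 13 of the named miRNAs, by the limma test of the difference itself. The contrast, serum minus liver, was 4.02 for miR-122-5p, 3.14 for miR-192-5p, 2.85 for miR-122-3p and 2.23 for miR-194-5p, whose serum differences were 3.35, 2.55, 2.14 and 1.68 and whose liver differences were -0.67, -0.59, -0.70 and -0.55. It was 0.99 for miR-193a-3p, with 0.58 in serum and -0.42 in liver. The contrast was -2.60 for miR-214-3p, -2.19 for miR-193b-3p, -1.57 for miR-128-3p, -1.56 for miR-497a-5p and -1.63 for miR-199a-5p, with liver differences of 0.73, 0.02, 0.15, 0.25 and 0.64. For miR-223-3p it was -1.95, with -0.27 in serum and 1.68 in liver, and for miR-155-5p it was -1.12, with 0.00 in serum, at the floor, and 1.12 in liver. For miR-721 it was -0.73, with -0.59 in serum and 0.14 in liver.

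The limma contrast of the week 1 serum difference with the mean of weeks 2 and 6 passed for 2 named miRNAs. It was -0.59 for miR-721, with later differences of 0.00 and 0.00, and 0.29 for miR-155-5p, with later differences of 0.00 and -0.58. miR-721 was at the floor on most later arrays, and miR-155-5p on all week 1 arrays and most later ones. The floor thus set several of these differences to 0, and the contrasts cannot show a difference particular to week 1. With the replicate number as a block, 0 miRNAs passed this contrast.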

How the results depend on the processing

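With 2 arrays per diet, a floor that holds 34.4% of the values and a spread borrowed from other weeks, which miRNAs passed depended on the settings. Over up to 23 other settings miR-205-5p passed in 17, miR-122-3p in 15 of 22, miR-192-5p in 14, miR-721 in 13 of 22, miR-344i in 8 of 22 and miR-712-5p in 7, and none of the 6 changed sign in any of these. Their sizes ranged from 0.58 to 2.91 for miR-122-3p, 2.28 to 2.82 for miR-192-5p, -4.01 to -2.15 for miR-205-5p, -1.06 to -0.38 for miR-712-5p, -1.12 to -0.12 for miR-344i and -0.69 to -0.15 for miR-721. With the replicate number as a block, which used 1 fewer array, 0 passed (0 higher, 0 lower; 47 at an unadjusted p below 0.05, smallest adjusted p 0.232), the later-week contrast had 0 and the liver contrast 43. With the slide row as a block 4 passed, 1 of them higher. The week 1 arrays alone gave 0 (48 unadjusted), and limma's test against a change of 0.5 gave 0 (21 unadjusted); weeks 1 and 2 alone gave 1 higher. The slide as a block could not be fitted, since each week lay on its own slide.

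For the counts of calls in all, higher, lower, against later weeks and against liver (6, 2, 4, 2 and 23), scaling by the 75th percentile of all probes gave 11, 7, 4, 5 and 12, median scaling gave 3, 2, 1, 0 and 26, quantile normalization gave 2, 1, 1, 1 and 19, and no scaling gave 13, 7, 6, 4 and 18. The median over miRNAs detected on all 4 arrays moved from -0.05 to 0.07 without scaling. The total signal per miRNA gave 4 higher, normexp gave 235 against later weeks and 12 against liver, and miRNAs detected on all 12 arrays gave 4 higher, 0 against later weeks and 9 against liver. The cause was not tested. Leaving out 1 array gave 2 to 14 calls, 0 to 3 higher, 1 to 12 lower, 2 to 9 against later weeks and 13 to 29 against liver.

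Of the 77 named miRNAs that did not pass, 47 kept their sign in all settings, 3 had a reported difference of 0, 3 were at 0 in another setting, 24 turned, and 15 passed in at least 1 setting that kept all arrays. Outside the settings that left out 1 array, changes of sign were small. miR-451a was 0.0312 with total signal, 0.0293 with normexp, 0.20 with all probes, 0.25 with median scaling and 0.22 unscaled. miR-126a-5p was -0.14 with total signal, -0.0028 with all probes and -0.0550 unscaled. miR-30d-5p was 0.0018, 0.0559 and 0.0248, and miR-30e-5p 0.10, 0.16 and 0.12, with all probes, median scaling and no scaling. miR-18a-5p was 0.0184 with median scaling, miR-132-3p -0.0133 with normexp and miR-30c-5p -0.0184 with the mean over probes. Leaving out 1 array turned 23 of the 77. The ranges were -0.73 to 1.37 for let-7f-5p, -0.65 to 1.17 for let-7a-5p, -0.60 to 0.98 for let-7c-5p, -0.34 to 1.70 for let-7g-5p, -0.41 to 0.91 for miR-103-3p, -0.21 to 0.78 for miR-107-3p, -0.18 to 1.21 for miR-15a-5p, -1.23 to 0.25 for miR-195a-5p, -1.29 to 0.0714 for miR-322-5p, -0.42 to 0.49 for miR-30c-5p, -0.52 to 0.10 for miR-30d-5p, -0.44 to 0.23 for miR-30e-5p and -0.12 to 0.41 for miR-29b-3p. They were -0.69 to 0.68 for miR-451a, -0.84 to 0.16 for miR-126a-3p, -0.0844 to 0.13 for miR-126a-5p, -0.79 to 0.24 for miR-223-3p, -1.01 to 0.0484 for miR-142a-3p, -0.60 to 0.11 for miR-18a-5p, -0.77 to 0.11 for miR-10a-5p, -0.65 to 0.0232 for miR-148b-3p, -0.54 to 0.17 for miR-301a-3p and -1.04 to 0.50 for miR-215-5p.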
